A study of Mus musculus with 300 samples.

Results

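The comparison set skeletal muscle of 10 vehicle mice labelled day 8 against muscle of 10 vehicle mice labelled day 4, and followed the genes of the circadian clock and the genes tied to it. These 20 arrays belong to a series of 300, in which liver, heart, kidney and skeletal muscle of 75 mice were profiled on an Affymetrix expression array. Mice received vehicle, or by mouth 10 mg/kg of WY14643, GW501516 or rosiglitazone, which are agonists of the nuclear receptors PPAR-alpha, PPAR-delta and PPAR-gamma, and were sampled on days 4, 8 and 15. A vehicle group held 10 mice and a compound group 5 mice per day. The members were all muscle arrays that the labels give as vehicle and as day 4 or day 8. Each array came from a different animal. The vehicle, the strain, the age of the mice and the hour of collection are not given in the sources used here, so day and time of collection cannot be told apart.

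In the mammalian clock the proteins of Clock and Arntl (BMAL1) bind E-boxes as a pair and switch on Per and Cry genes, whose proteins then return to block that pair. A second loop runs through the receptors of the Nr1d and Ror genes, which compete at ROR elements of the Arntl gene. The PAR bZIP factors Dbp, Tef and Hlf, with the opposing factor Nfil3, carry the rhythm onward through D-boxes. In muscle the clock is known to time fuel use and genes of the contractile apparatus. Levels are log2 intensities, and a difference is that of group means on this scale. A gene was called when its adjusted p in limma was under 0.05, over all 18193 genes measured. The 7 skeletal muscle fibre markers averaged 13.09 to 13.32 on day 4 arrays and 13.03 to 13.30 on day 8 arrays, in keeping with the tissue label, and the cardiomyocyte markers averaged 3.49 to 4.27 and 3.40 to 4.05.

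Muscle of the 2 vehicle days differed in few genes, and clock genes led them. Of 18193 genes 33 were called (0.181%), 16 higher on day 8 (0.0879%) and 17 lower (0.0934%). Per2 fell most, by 1.61, and Arntl rose most among called genes, by 1.34. Of the 21 measured core clock genes 2 rose, 2 fell and 17 were not called. Of the 19 measured clock output genes 0 rose, 3 fell and 16 were not called. The median absolute difference was 0.27 over the core clock and 0.30 over the output genes, against 0.08 over all genes. It was larger over slow fibre genes (0.59) and adipocyte markers (0.42), where no gene was called. This measure therefore does not by itself set clock genes apart. The arrays of the 2 days did not overlap for 9 genes (0.0495%), 6 higher on day 8 and 3 lower. The number of called genes moved with single animals. It was 21, 17 and 18 without day 4 replicates 5, 6 and 9, and 19, 18, 20 and 16 without day 8 replicates 1, 3, 4 and 7. Centring each array on its median gave 19 rises and 11 falls. With the 20 vehicle arrays alone 33 genes were called, 23 of them among these 33; of the genes named below Tef, Prodh, Maco1, Gramd4, Spon2 and Ppil6 were not.

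RefSeq promoter windows of 4 genes are shown because they belong to called clock genes and hold a clock motif. Each window runs from 250 bases before to 50 bases after a gene start, on build GRCm38.p6. Letters in capitals mark the motif.
Per3 (chr4:151044616-151044915, minus strand): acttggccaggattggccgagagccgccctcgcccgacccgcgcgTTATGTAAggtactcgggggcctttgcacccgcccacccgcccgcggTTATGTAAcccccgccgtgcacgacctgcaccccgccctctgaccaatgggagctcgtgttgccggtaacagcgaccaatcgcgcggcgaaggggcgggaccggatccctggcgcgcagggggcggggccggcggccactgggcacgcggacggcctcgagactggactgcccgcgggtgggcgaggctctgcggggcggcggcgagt
Tef (chr15:81811164-81811463, plus strand): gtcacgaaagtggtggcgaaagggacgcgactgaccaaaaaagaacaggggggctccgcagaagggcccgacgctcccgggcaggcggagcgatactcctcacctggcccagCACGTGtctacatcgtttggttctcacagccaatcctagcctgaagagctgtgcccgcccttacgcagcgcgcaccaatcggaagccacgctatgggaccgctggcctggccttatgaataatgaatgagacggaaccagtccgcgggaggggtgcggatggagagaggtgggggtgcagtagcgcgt
Lonrf3 (chrX:36328159-36328458, plus strand): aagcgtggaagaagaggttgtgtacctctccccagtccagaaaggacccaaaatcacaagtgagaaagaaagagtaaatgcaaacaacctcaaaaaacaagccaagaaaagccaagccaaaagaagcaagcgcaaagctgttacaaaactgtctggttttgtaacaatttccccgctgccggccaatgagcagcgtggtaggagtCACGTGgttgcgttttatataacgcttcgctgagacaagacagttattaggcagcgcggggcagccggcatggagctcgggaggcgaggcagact
Arntl (chr7:113207261-113207560, plus strand): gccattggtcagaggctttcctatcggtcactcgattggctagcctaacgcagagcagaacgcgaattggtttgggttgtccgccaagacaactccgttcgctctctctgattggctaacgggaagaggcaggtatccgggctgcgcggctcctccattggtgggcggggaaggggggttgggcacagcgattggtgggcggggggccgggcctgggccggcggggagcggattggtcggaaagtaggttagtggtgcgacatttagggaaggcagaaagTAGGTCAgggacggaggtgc
The Per3 window held the D-box TTATGTAA at 205 and at 158 bases before the start. The Tef and Lonrf3 windows held the E-box CACGTG at 138 and 45 bases before the start. The second Arntl window held the ROR element TAGGTCA starting 30 bases after the start. Searched on both strands, CACGTG stood in 7.15% of all 32851 windows, a D-box (TTATGTAA or TTACGTAA) in 1.06%, and a ROR element (TAGGTCA or TGGGTCA) in 6.45%. The related E-box CACGTT stood in 4.68%. By gene, CACGTG stood in a window of 8.09% of 27025 genes, a D-box in 1.23% and a ROR element in 7.35%. Core clock genes that were not called held motifs too. Of 17 core clock genes with a window CACGTG stood in 4, Per1, Cry1, Ciart and Bhlhe41, and none of them was called. A D-box stood in Timeless, also not called. Of the 17 called falls 14 had a window, and CACGTG stood in 2 of them, Lonrf3 and Tef. Of the 16 called rises 13 had a window, and CACGTG stood in 2 of them, Gramd4 and Slc25a36. In Gramd4 the E-box overlapped a ROR element, TGGGTCA. A match describes the letters and was not tested as a binding site.

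Of the 4 activator genes of the clock 2 rose, Arntl and Clock, and 0 fell. Arntl ran from 5.94 over a median of 6.25 to 6.62 on day 4, and from 6.86 over 7.43 to 8.84 on day 8. Every day 8 array lay above every day 4 array, and the difference was 1.34 ± 0.24 (SE), a 2.53-fold rise with an adjusted p of 0.00149. The other Arntl probe set was dim, with a median of 1.94 on day 4, and differed by 0.06; the mean of both differed by 0.70 and missed the threshold (adjusted p = 0.0603). Clock, whose protein pairs with that of Arntl, ran from 8.60 over 8.90 to 8.99 on day 4 and from 9.11 over 9.23 to 9.46 on day 8. Its groups were also separate, but the gap was smaller, 0.41 ± 0.065 (adjusted p = 0.000209). Clock had 3 other probe sets; 2 of them were called as rises, at 0.64 and 0.58.

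Npas2, a stand-in partner for Clock, gave different readings on its 2 probe sets. The brighter one, which stood for the gene, differed by 0.03 ± 0.10 and was not called (adjusted p = 0.981). The other ran from 3.49 over 3.81 to 4.12 on day 4 and from 4.00 over 5.47 to 6.47 on day 8. That is a difference of 1.52 ± 0.28, with an adjusted p of 0.00194 over all probe sets. The Npas2 reading therefore depended on the probe set. Arntl2, a relative of Arntl, was lower on day 8 by 0.36 and was not called (adjusted p = 0.629).

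Among the 8 measured repressors 0 rose and 2 fell, Per2 and Per3. Per2 ran from 8.27 over a median of 8.46 to 8.86 on day 4 and from 5.06 over 7.0 to 8.15 on day 8. All 10 day 8 arrays lay below all day 4 arrays, and the fall was 3.06-fold (-1.61 ± 0.19, adjusted p = 9.28e-08). The spread was wide on day 8, with an SD of 0.897, against 0.235 on day 4. The SE and adjusted p above take the spread from all muscle arrays, treated mice included. Per2 was still called with the spread of the 20 vehicle arrays alone, but at a much larger adjusted p of 0.00937. The 30 vehicle arrays alone gave 0.00153. A second Per2 probe set was called at -1.11, and the dimmest one stood at -0.48 and was not called.

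Per3 ran from 9.52 over 9.98 to 10.22 on day 4 and from 8.41 over 9.25 to 9.57 on day 8. The groups overlapped slightly, with 7 day 8 arrays under the whole day 4 range, and Per3 fell by 0.67 ± 0.12 (adjusted p = 0.0019). Its 5 other probe sets were lower too, by 0.09 to 0.33, and none of them was called; the mean of all 6 differed by -0.29 (adjusted p = 0.409). Per1 and Ciart, an E-box repressor also known as Chrono, were lower by 0.59 ± 0.21 and 0.76 ± 0.26 and were not called (adjusted p 0.345 and 0.326). Both varied widely on day 8, from 6.06 to 8.32 for Per1 and from 5.95 to 8.46 for Ciart. Cry1, which blocks the activator pair together with the Per proteins, differed by -0.05 ± 0.09, with a 95% interval from -0.23 to 0.13. Cry2 differed by -0.29 (adjusted p = 0.446), and the repressors Bhlhe40 and Bhlhe41 by 0.05 and -0.16, none of them called.

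**Figure D1:**
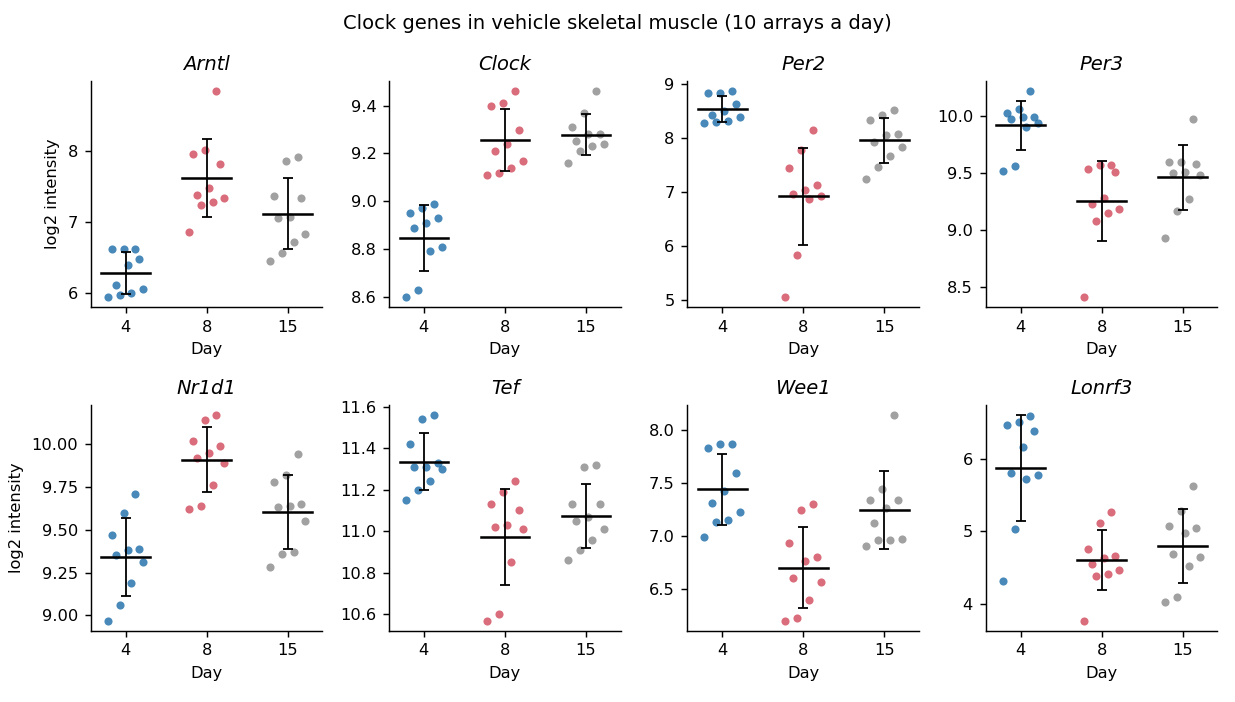
Log2 intensity of 8 clock genes in vehicle skeletal muscle by day; each point is 1 mouse, lines are means and bars 1 SD (n = 10). Arntl and Clock sit higher on day 8 than on day 4 with no overlap, Per2 lower with no overlap, and day 8 holds the lowest Per2 value, 5.06.

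In the second loop no gene passed the test over all arrays. Nr1d1, the Arntl repressor REV-ERB-alpha, ran from 8.97 over 9.37 to 9.71 on day 4 and from 9.62 over 9.94 to 10.17 on day 8. Each of the 10 day 8 arrays lay above the day 4 mean, and the difference was 0.57 ± 0.16 (adjusted p = 0.145). With the spread taken from the 20 vehicle arrays alone the same difference was called (adjusted p = 0.00821). Its relative Nr1d2 stood lower on day 8 by 0.27 ± 0.069 (adjusted p = 0.0879). Rora and Rorb, the activators of this loop, differed by -0.13 and 0.17 and were not called. The 5 measured genes of clock protein modification, among them the casein kinases Csnk1d and Csnk1e, differed by -0.27 to 0.05, and 0 were called.

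The clock output genes that were called, Tef, Wee1 and Lonrf3, were lower on day 8. Tef ran from 11.15 over 11.31 to 11.56 on day 4 and from 10.57 over 11.02 to 11.24 on day 8, a fall of 0.36 ± 0.067 (adjusted p = 0.00176). Of the 10 day 8 arrays 8 lay below all day 4 arrays. Of its 2 other probe sets 1 was lower (-0.34) and 1 was not (0.06), and neither was called; the mean of all 3 differed by -0.22 (adjusted p = 0.62). With the spread taken from the 20 vehicle arrays alone, Tef was no longer called (adjusted p = 0.0805). Hlf was lower on day 8 by 0.57 ± 0.14 with no overlap between the days, yet just missed the threshold (adjusted p = 0.0809), while its second probe set was called at -0.67 ± 0.13. Dbp was lower by 0.53 ± 0.21 and was not called (adjusted p = 0.421), with day 8 arrays from 9.88 to 11.53. Nfil3 differed by 0.00 ± 0.23.

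Wee1, whose kinase delays entry into mitosis, ran from 6.99 over 7.36 to 7.87 on day 4 and from 6.20 over 6.68 to 7.30 on day 8. It fell by 0.74 ± 0.14 (adjusted p = 0.00404), with 8 day 8 arrays below the whole day 4 range. Lonrf3, which codes for a RING finger protein, had the second largest fall among called genes, 1.27 ± 0.24 (adjusted p = 0.0028). Its days overlapped broadly: 4.31 over 5.98 to 6.59 on day 4 and 3.77 over 4.59 to 5.27 on day 8. Usp2, a ubiquitin protease that rises and falls with the clock in many tissues, was lower by 0.30 ± 0.075 (adjusted p = 0.0672), and its second probe set was called at -0.57. Of the other output genes, Fmo2, Tspan4 and Herpud1 were lower by 0.39, 0.35 and 0.31, and Cdkn1a, Leo1 and Ypel2 higher by 0.49, 0.24 and 0.21. Tsc22d3 (-0.23), Noct (-0.13), Nampt (-0.06), Lpin1 (0.03), Tubb2a (0.05) and Avpr1a (0.25) completed the list. None of these 12 was called.

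**Figure D2:**
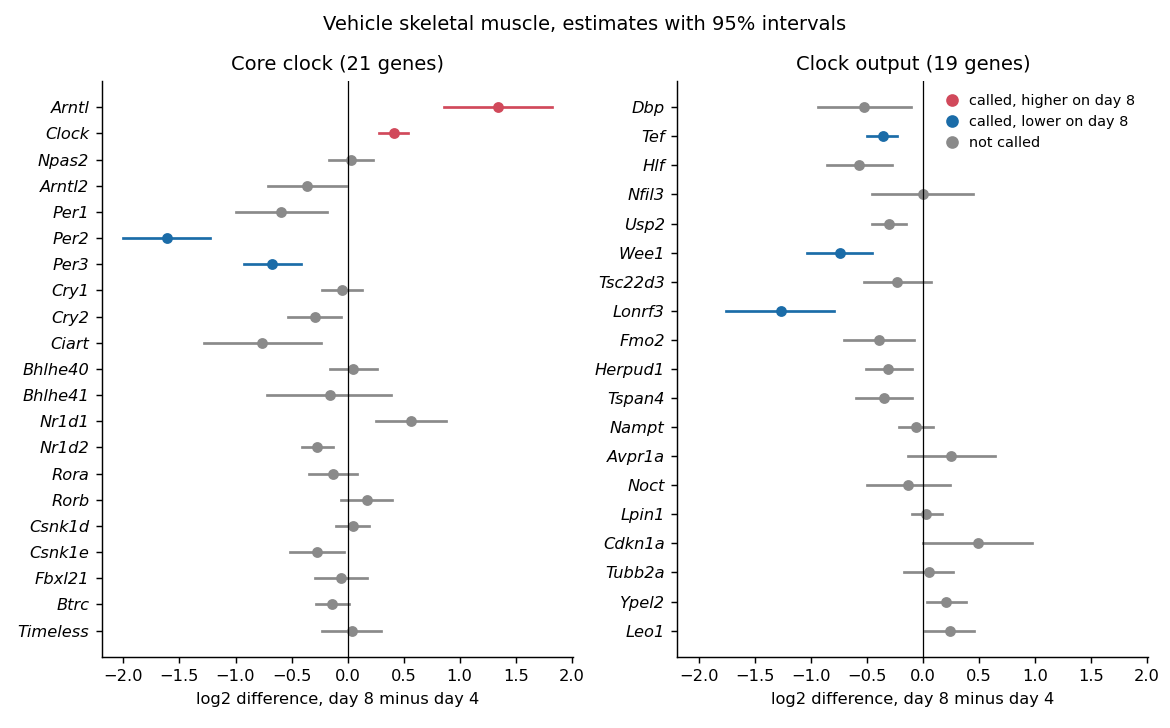
Log2 difference, day 8 minus day 4, for the 21 core clock and 19 clock output genes in vehicle skeletal muscle; points are limma estimates and lines 95% intervals. Arntl and Clock are called as rises, and Per2, Per3, Tef, Wee1 and Lonrf3 as falls.

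The mice of day 8 also differed among themselves in these genes. Over the 40 clock and output genes, day 8 replicate 7 held the highest or lowest day 8 value of 20 and replicate 3 of 19. The other day 8 arrays held that of 1 to 12. Extremes over all genes were not counted. A trait of the clock genes therefore cannot be told apart from arrays that are extreme in general. Replicate 7 had the highest Arntl (8.84) and the lowest Per2 (5.06), Per3 (8.41), Dbp (9.88) and Hlf (6.84). Without it the difference was -1.41 for Per2, 1.20 for Arntl and -0.57 for Per3, and all 3 were still called. Within day 8, Arntl went down as Per2 went up (Pearson r = -0.812, permutation p = 0.00592; Spearman rho = -0.915, p = 0.00049; n = 10). Over the 12 relations examined the adjusted p values were 0.0304 and 0.00588. Without the 2 mice farthest from the median of Arntl, r was -0.608.

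Arntl against Per3 within day 8 gave r = -0.893 (permutation p = 0.00216, adjusted 0.0259) and rho = -0.745 (adjusted p = 0.07), and r = -0.667 without those 2 mice. Arntl against Dbp gave r = -0.796 (adjusted permutation p = 0.0399) and rho = -0.673 (adjusted p = 0.118), and r = -0.503 without them. Within day 4, where Arntl spanned less than 1 unit, Arntl against Per2 gave r = -0.195 (permutation p = 0.577). Against Per3 it gave r = -0.286 on day 4, and -0.834, not tested, without the 2 mice farthest from the median of Arntl. Against Ciart r was 0.682 on day 4 and -0.673 on day 8 (adjusted permutation p = 0.076 for both). Against the brighter Npas2 probe set, which differed by 0.03 between the days, r was 0.427 on day 4 and -0.139 on day 8. The Npas2 probe set that differed by 1.52 was not examined against Arntl. Against Dbp r was 0.111 on day 4. None of these relations had an adjusted permutation p under 0.05. Nr1d1 went with Arntl on day 4 (r = 0.775, adjusted permutation p = 0.0304; rho = 0.758, adjusted p = 0.07) and gave r = -0.0463 on day 8, where r was 0.591 and not tested without the 2 mice farthest from the median of Arntl. Array quality was not tested as a part of these relations.

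**Figure D3:**
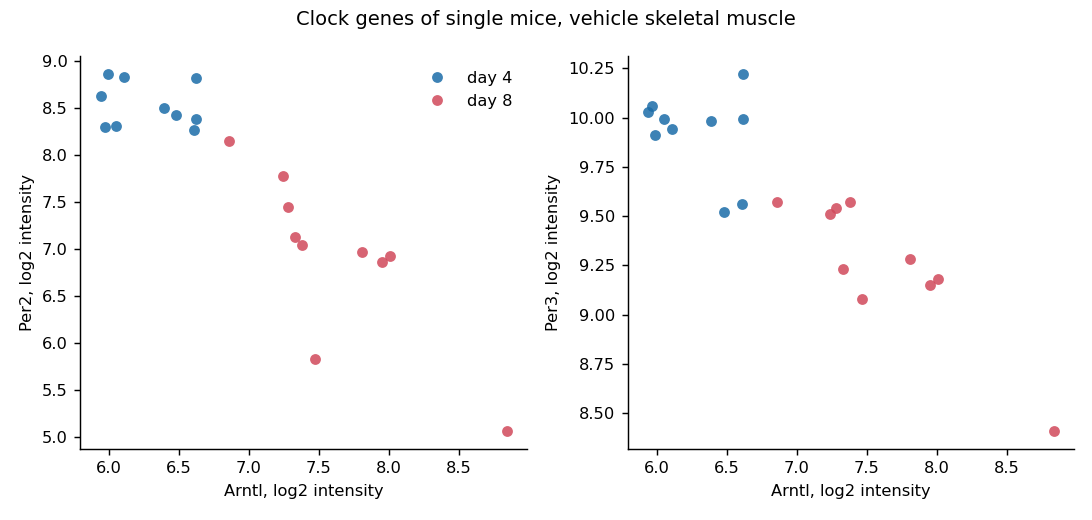
Log2 intensity of Arntl against Per2 (left) and Per3 (right) in vehicle skeletal muscle, 1 point per mouse, day 4 blue and day 8 red. Day 8 mice run from the edge of the day 4 cloud (Arntl 6.86, Per2 8.15) to 1 mouse at Arntl 8.84 and Per2 5.06.

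Of 21 measured clock-linked genes of muscle itself 0 rose and 1 fell, where 0.0934% of all genes fell. The median difference was -0.08, against -0.01 over all genes, and the median absolute difference 0.14, against 0.08. The fall was in Tcap, the gene of telethonin, a protein of the Z-disc. Tcap ran from 13.04 over 13.13 to 13.25 on day 4 and from 12.74 over 12.96 to 13.06 on day 8. The fall was small and even, 0.21 ± 0.036 (adjusted p = 0.000562), with 8 day 8 arrays below all day 4 arrays. With each array centred on its median, Tcap was no longer called (adjusted p = 0.157). The regulator Fst and the oxidase gene Smox marked the ends of the list at 0.56 and -0.40, neither called; they are named after their values were seen.

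Other fixed lists held 1 called gene among them. Srebf2, a transcription factor of sterol synthesis, ran from 6.92 to 7.55 on day 4 and from 7.46 to 7.94 on day 8, a rise of 0.43 ± 0.088 (adjusted p = 0.00941). The other 15 of 16 measured genes of fatty acid and sterol synthesis were not called. No member was called of 20 glucocorticoid-inducible genes (median difference -0.12), 18 genes of fasting and fatty acid use (0.02), 17 of glucose use and glycogen (-0.01), 21 immediate early genes (0.04) or 17 heat shock and temperature genes (-0.09). The same held for 16 genes of protein breakdown and autophagy (-0.08), 17 growth factors and muscle regulators (-0.01), 22 fibre type genes (0.08, with 0.59 over the 10 slow and -0.01 over the 12 fast genes) and 17 extracellular matrix genes (0.09). Over all genes 0.181% were called, so the absence of a call in lists this short says little about their genes. In limma 1423 of all genes had an unadjusted p under 0.05.

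Outside the lists, the falls came from several kinds of gene. Stk35, a serine and threonine kinase gene, ran from 6.55 to 7.15 on day 4 and from 6.08 to 6.55 on day 8 without overlap, and fell by 0.55 ± 0.086 (adjusted p = 0.000151). Mthfd1l, of mitochondrial one-carbon metabolism, fell by 0.86 ± 0.15, and Cys1, which codes for the ciliary protein cystin, by 0.83 ± 0.15. In each of these genes all 10 day 8 arrays lay below the day 4 mean, where the rule for naming genes already required at least 9. The peptide gene Nmb (-0.65), the proline dehydrogenase gene Prodh (-0.62), the zinc finger gene Zfp503 (-0.61), the cytokine receptor kinase gene Jak2 (-0.41) and Maco1 (-0.40) also fell. Their adjusted p ran from 0.0228 to 0.0467, and each lost its call in some of the fits with 1 array left out.

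Among the rises outside the lists was Adamts4, a protease that cuts aggrecan. It ran from 3.37 to 5.02 on day 4 and from 4.86 to 6.23 on day 8, a rise of 1.29 ± 0.29 (adjusted p = 0.0279). Cd93, a surface receptor of endothelium and myeloid cells, ran from 9.60 over 9.82 to 10.06 on day 4 and from 10.07 over 10.39 to 10.68 on day 8. Its days did not overlap, and it rose by 0.54 ± 0.11 (adjusted p = 0.00876). The collagen chain gene Col5a3 (0.65) and the matrix protein gene Spon2 (0.55) rose as well. With 1 array left out in turn, Cd93 was called in all 20 fits, Adamts4 in 12, Col5a3 in 9 and Spon2 in 15. The 5 endothelial markers averaged 7.79 over 8.11 to 8.42 on day 4 and 8.14 over 8.35 to 8.67 on day 8. None of the 5 was called. Kdr was higher by 0.68 ± 0.18 with no overlap (adjusted p = 0.108). The other markers differed less, Pecam1 and Tek by 0.24, Cdh5 by 0.12 and Vwf by -0.12, and their days overlapped. The part of the endothelial share in these rises was not tested, and in whole tissue more cells of a type and more RNA per cell cannot be told apart.

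Further rises were in Trp53i11 (0.85 ± 0.20, no overlap), Efr3b, which anchors a lipid kinase at the plasma membrane (0.83 ± 0.18), Gramd4 (0.60 ± 0.099), the acyltransferase gene Mboat1 (0.58 ± 0.13), Sh3bp5 (0.50 ± 0.096) and Ppil6 (0.49 ± 0.12). Their adjusted p ran from 0.000361 to 0.0467. With 1 array left out, Trp53i11 was called in 3 of the 20 fits, Ppil6 in 6, Mboat1 in 12 and Efr3b in 13. Gramd4 and Sh3bp5 were called in all 20. Ppil6 was dim, from 2.65 to 3.37 on day 4 and from 3.14 to 3.93 on day 8. Among the 33 called genes 5 lay under the 40th percentile of mean level. The growth factor feedback gene Spry4 was the last of the 9 genes without overlap, at 0.51 and an adjusted p of 0.246; it is named after its values were seen. Of the 33 called genes, 24 had several probe sets. Another probe set was called the same way for 4 of them and the opposite way for 0. For some named genes the other probe set was near flat or of opposite sign, and not called. It stood at -0.07 for Cys1, -0.02 for Efr3b and -0.13 for both Mboat1 and Col5a3, where it was dim. For Lonrf3 and Wee1 the other probe set was lower too, at -0.41 and -0.37, and not called. When each of the 20 arrays was left out in turn, 15 of the 33 were called every time.

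Marker genes of some other cell types varied strongly between animals on both days. The 3 brown adipocyte markers averaged from 3.53 to 10.73 on day 4 and from 3.70 to 11.12 on day 8. Slow fibre genes averaged from 6.15 to 10.98 and from 6.96 to 10.43, and hepatocyte markers from 4.05 to 6.75 and from 3.93 to 6.82. The ranges of both days overlapped throughout, and 0 genes of these lists were called. With the brown adipocyte, slow fibre and hepatocyte means as covariates, an alternative chosen after seeing the data, 69 genes were called and all 33 were among them.

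Day 15 vehicle muscle lay between the other days for several clock genes. Day 15 shares its day 4 and day 8 arrays with the comparison above, so the levels are set side by side. The hepatocyte gene Alb ran from 4.88 over 7.85 to 11.92 on day 15. Its highest values were 7.41 on day 4 and 7.53 on day 8. The part of liver RNA in the day 15 levels was not tested. Per2 ran from 7.24 over 7.98 to 8.52 on day 15, above day 8 by 1.03 ± 0.19 (adjusted p = 0.0197), the 1 gene called between days 15 and 8 (0.0055%). Clock ran from 9.16 over 9.27 to 9.46, above day 4 by 0.43 ± 0.065 (adjusted p = 0.000145), the 1 gene called between days 15 and 4 (0.0055%). Arntl ran from 6.45 over 7.06 to 7.91 on day 15 and overlapped both other days. Its difference from day 4 was 0.83 (adjusted p = 0.252), and that from day 8 was -0.50 (adjusted p = 1.0).

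In muscle of treated mice with the same day labels, Per2 and Arntl stood the other way and did not pass the test. The 30 arrays of the 3 compounds share no array with the vehicle comparison. The hour of collection is not given for vehicle or treated mice, so treatment and a difference in that hour cannot be told apart in the values below. Averaged over the compounds, Per2 differed by 0.45 ± 0.16 between day 8 and day 4 (adjusted p = 0.744), Arntl by -0.42 ± 0.20 (adjusted p = 0.946) and Clock by 0.07 ± 0.053 (adjusted p = 1.0). The 1 gene called there was Gemin8, at -0.40 ± 0.077 (0.0055% of genes), named after its values were seen. Per2 on day 8 ran from 8.54 to 8.80 with GW501516, from 8.72 to 8.95 with rosiglitazone and from 8.16 to 8.88 with WY14643. All 15 treated mice of day 8 thus stood above the 10 vehicle mice of day 8, whose highest Per2 was 8.15. Arntl on day 8 ran from 5.95 to 6.46, from 5.69 to 6.57 and from 6.13 to 7.10 with the 3 compounds in that order, against 6.86 to 8.84 with vehicle.

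The difference between the treated and the vehicle change was tested in the same model. It was called for 22 genes (0.121%), 14 with a more positive and 8 with a more negative change in treated mice. In the core clock these were Per2 (2.07 ± 0.25, adjusted p = 1.21e-07), Arntl (-1.76 ± 0.31, adjusted p = 0.000967), Per3 (0.84 ± 0.16) and Nr1d2 (0.40 ± 0.089). Among the output genes they were Wee1 (1.14 ± 0.19), Hlf (0.84 ± 0.19), Usp2 (0.49 ± 0.097) and Tef (0.45 ± 0.086). Lonrf3 (1.27 ± 0.31) and Clock (-0.34 ± 0.085) missed the threshold, both with an adjusted p of 0.0823. This test uses the vehicle arrays again and adds no independent support for the vehicle change. In treated mice 16 of the 17 genes that fell with vehicle had a positive difference, and 8 of the 16 that rose had a negative one. Over all genes 50.8% had opposite signs. By compound, 0 genes were called with GW501516 and 0 with rosiglitazone (475 and 603 at an unadjusted p under 0.05 in limma), and 37 with WY14643, none of them in the core clock or output lists.

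**Figure D4:**
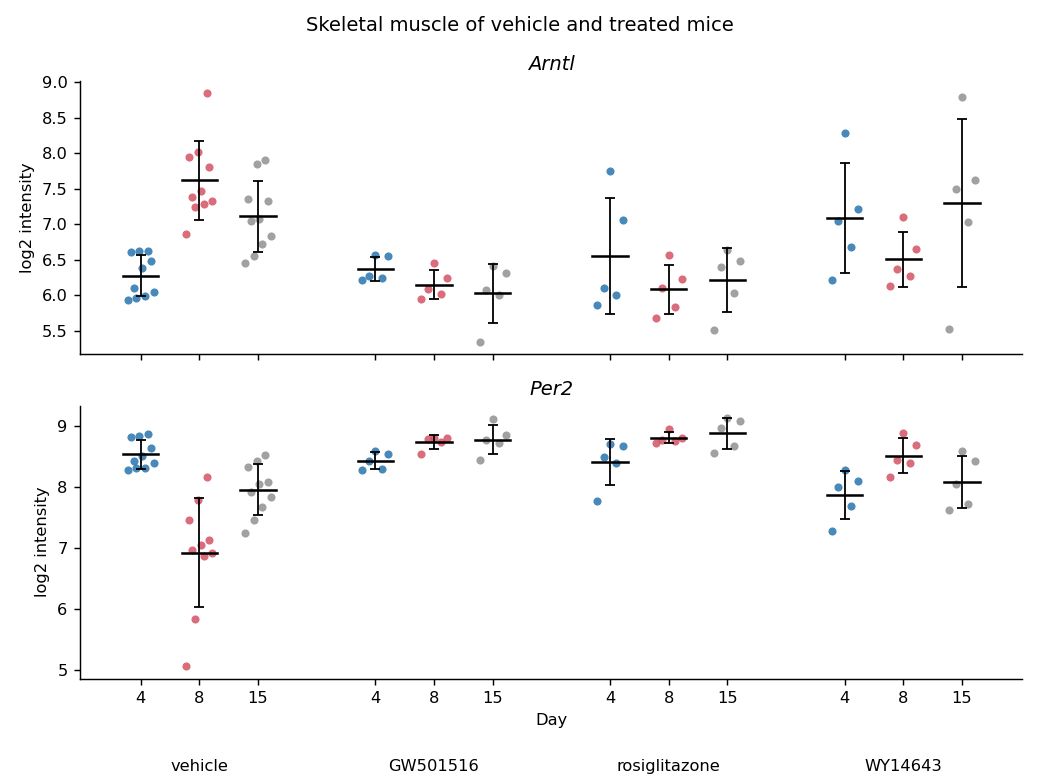
Log2 intensity of Arntl (top) and Per2 (bottom) in skeletal muscle by treatment and day; points are mice, lines means and bars 1 SD (n = 10 for vehicle and 5 for each compound). Vehicle mice of day 8 are low in Per2, from 5.06 to 8.15, while treated mice of day 8 lie from 8.16 to 8.95.

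Other organs of the same vehicle mice were compared to see where muscle stood apart. In heart 144 genes were called between day 8 and day 4 (0.792%), in liver 1763 (9.69%) and in kidney 79 (0.434%). Core clock calls numbered 7 of 21 in heart, 8 in liver and 5 in kidney, against 4 in muscle. Arntl rose and Per2 fell in all 3 other organs: Arntl by 1.80 ± 0.22 in heart, 2.46 ± 0.33 in liver and 1.14 ± 0.26 in kidney, and Per2 by -1.30 ± 0.19, -1.22 ± 0.17 and -0.88 ± 0.15. Tef fell there too, by 0.56, 0.81 and 0.24. Differences of the change between muscle and each organ were then fitted within animals.

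Against heart, the muscle change differed for 4 genes (0.022%): the clock repressor Ciart (0.81 ± 0.16, adjusted p = 0.0277), and, named after their values were seen, Zbtb16 (1.07), Shld1 (0.91) and Rhbdl3 (-0.79). Ciart fell by 1.57 ± 0.25 in heart and by 2.46 ± 0.33 in liver. Against liver the change differed for 141 genes (0.775%), and muscle clock genes mostly moved less. Usp2 differed by 2.23 ± 0.25 (adjusted p = 8.34e-09), after a fall of 2.53 ± 0.28 in liver, and Ciart by 1.70, Per1 by 0.72, Tef by 0.45 and Arntl by -1.12. Noct, the gene of nocturnin, differed by 1.26, Nampt, of NAD synthesis, by 0.76 and Tubb2a by -1.55. Lonrf3 went the other way, with a larger fall in muscle (-1.02 ± 0.23, adjusted p = 0.0113) and -0.25 ± 0.20 in liver.

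Against kidney the change differed for 8 genes (0.044%), 3 of them clock genes. Cry1 fell by 1.20 ± 0.17 in kidney and differed by -0.05 in muscle, a difference of 1.15 ± 0.17 (adjusted p = 4.86e-05). Per2 fell more in muscle (-0.73 ± 0.13, adjusted p = 0.00363), and so did Lonrf3 (-1.29 ± 0.28, adjusted p = 0.0472), which stood at 0.01 ± 0.17 in kidney. Against heart the Lonrf3 difference was -0.99 ± 0.22 and missed the threshold (adjusted p = 0.0821).

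**Figure D5:**
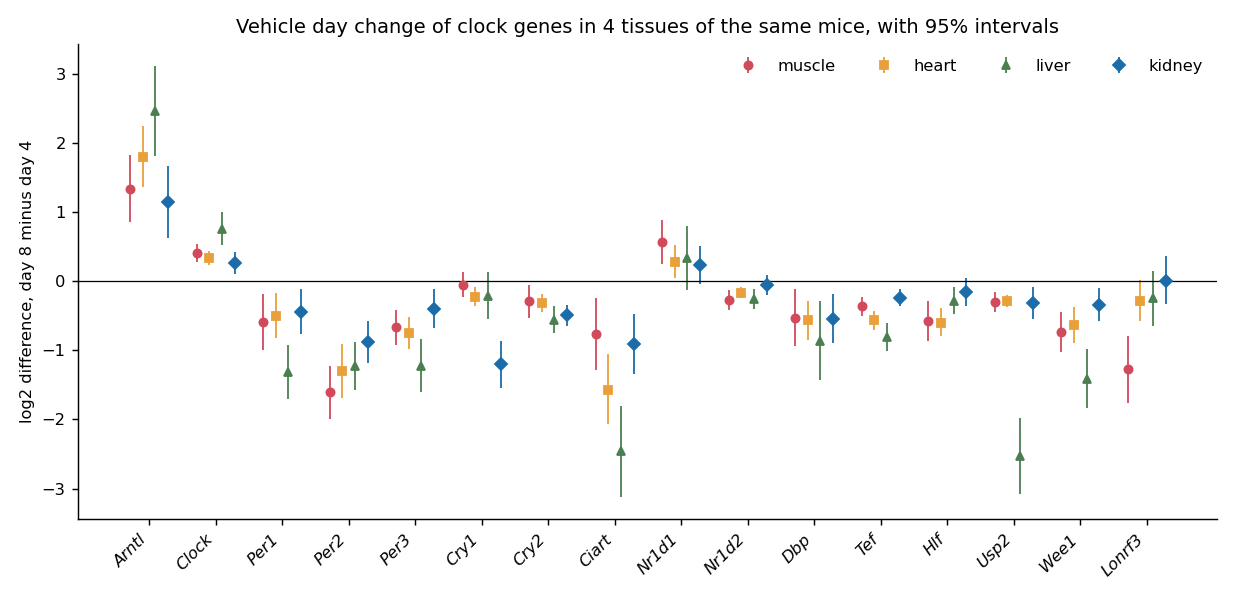
Log2 difference, day 8 minus day 4, of 16 clock genes in muscle, heart, liver and kidney of the same vehicle mice; points are limma estimates and lines 95% intervals. Arntl is higher and Per2 lower in all 4 tissues, Usp2 falls furthest in liver (-2.53), Cry1 in kidney (-1.20) and Lonrf3 in muscle (-1.27).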

How the data were processed

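The authors deposited log2 intensities for 45101 probe sets on 300 arrays, made with RMA in Partek per the submitters' processing notes, which give no versions. Per the labels' protocols, 100 ng of total RNA per sample was amplified and biotin-labelled with NuGEN reagents. These log2 values were used as deposited, with no filter on dim genes; RMA shrinks differences of dim probe sets. Of the probe sets 34945 named 1 gene, 932 several and 9160 none. Where a gene had several, the brightest on average in the 75 muscle arrays was taken, and 18193 genes were tested.

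All 75 muscle arrays were fitted with limma 3.58.1 (lmFit, eBayes with trend) in R 4.3.3, with 12 groups and 63 residual degrees of freedom. Vehicle day 8 minus day 4 was the main contrast. P-values were two-sided, Benjamini-Hochberg adjusted over all genes. Within-animal differences between organs used the mouse number of the labels. Correlation p values came from 100000 two-sided permutations. The fit was tested on simulated data. Named were all clock genes, called members of other lists, and the 12 largest called rises and falls with at least 9 of 10 arrays of each day on their side, where predicted genes such as 4921517D16Rik gave way to the next. Members and lists were chosen with earlier results of these data known. Promoters came from RefSeq (GRCm38.p6), by gene symbol. No array was left out. The number of arrays, 10 a day, limits the precision.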

Additional observations from a re-analysis of the deposited data

Results flagged for a closer look

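Single mice stood far from the other 9 of their day for some genes. Chance alone gives about 1 such case in 20 groups, so some of the cases below can be chance. On day 8, replicate 7 was lowest for Per3 (8.41), Dbp (9.88) and Hlf (6.84) and highest for Nfil3 (9.19) and Cdkn1a (9.60). Replicate 3 was lowest for Tsc22d3 (9.32) and highest for Spats2 (8.95). On day 4, replicate 6 was highest for Rorb (2.76), Cdkn1a (8.80) and Prodh (7.38), and replicate 1 was highest for Rora (11.49) and lowest for Efr3b (5.78). Replicate 9 was lowest for Avpr1a (3.55) and replicate 7 for Leo1 (7.37).

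The day change differed between treated and vehicle muscle for clock genes: Arntl (-1.76), Per2 (2.07), Per3 (0.84), Nr1d2 (0.40), Tef (0.45), Hlf (0.84), Usp2 (0.49) and Wee1 (1.14). It also differed for Mthfd1l (1.23), Cys1 (1.16), Zfp503 (0.92), Stk35 (0.66), Maco1 (0.50) and Tcap (0.26), more positive in treated mice. Adamts4 (-1.63), Trp53i11 (-1.29), Ppil6 (-0.68), Gramd4 (-0.67), Sh3bp5 (-0.65) and Cd93 (-0.65) were more negative in treated mice.

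The muscle change differed within animals from that of heart for Ciart (0.81). From that of liver it differed for Usp2 (2.23), Ciart (1.70), Noct (1.26), Nampt (0.76), Per1 (0.72) and Tef (0.45), and for Tubb2a (-1.55), Arntl (-1.12) and Lonrf3 (-1.02). Among the other called genes it differed from liver for Efr3b (1.08), Sh3bp5 (0.51), Srebf2 (0.50), Jak2 (-0.51) and Zfp503 (-0.65). From that of kidney it differed for Cry1 (1.15), Per2 (-0.73), Stk35 (-0.59) and Lonrf3 (-1.29).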

How the results depend on the processing

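All 33 called genes kept their sign in every alternative that held them. Called genes numbered 33, 16 higher and 17 lower. With the replicate number as a block (replicate block, 20 vehicle arrays) they were 13, 10 higher and 3 lower, with 0 clock output genes and 7 of the 33. The mice are different animals, and same-numbered mice did not deviate together (r from -0.337 to 0.397, median 0.0476, over 0.1 in 4 of 10 pairs, and 1 of 10 day 8 mice was closest to its own number), so the block is no pairing. Array weights gave 50, 27 higher, with 5 clock output genes. Marker means as covariates gave 69, 35 higher and 34 lower. The 30 vehicle arrays alone gave 26 higher genes, and median centring 11 lower ones. Leaving out 1 array in turn gave 16 to 38 called genes, 6 to 19 higher and 9 to 19 lower. The mean of all probe sets gave 28 genes, 21 of them among the 33, and ended the calls of Arntl, Per3 and Tef (0.70, -0.29 and -0.22). In treated mice the mean over compounds called 1 gene, GW501516 alone 0, rosiglitazone alone 0 and WY14643 alone 37. The cause of these shifts was not tested.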
